A study of Saccharomyces cerevisiae YPS1009 with 8 samples.

Results

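The libraries described here are ribosome footprints of log phase yeast, from 2 euploid cultures and 2 cultures with an extra chromosome XII. They are 4 of the 8 libraries of a study that followed both strains from growth into stationary phase, and were chosen by their labelled strain and phase, Chr12 replicate 1 being set against euploid replicate 1 and Chr12 replicate 2 against euploid replicate 2. Ribosome profiling sequences the short mRNA stretches that ribosomes shield from digestion, so the reads of a gene count the ribosomes on its mRNAs and move with both mRNA level and translation. The later libraries, taken after 4 days, enter no comparison between the strains in log phase, and stand beside them only among the closing observations and in alternative fits.

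All 4 cultures were the haploid wild strain YPS1009, of the North American lineage, grown in YPD, a rich glucose medium, in shake flasks and harvested in log phase after 3 generations. The Chr12 cultures carried 1 additional copy of chromosome XII, so each gene on it should be present in 2 copies where the euploid has 1. In the study's strain table the marked euploid carries ho-Δ1 and a NatMX cassette on chromosome XII between BER1 and INA1, and the marked Chr12 strain carries ho-Δ1, his3-Δ and the His3MX6 and NatMX cassettes that hold the extra copy, while both are MATa. The labels do not say which strain number was profiled, so each group may stand for 1 isolate, and whether its 2 cultures came from separate isolates is not stated. The series calls its replicates biological duplicates. The p-values and SEs here rest on these 4 libraries only, and on a spread shared over genes, not on each gene's own.

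A cell with an extra chromosome generally makes more of the mRNA of each gene on it, and proteins whose partners lie on other chromosomes can be left without them. Some genes are known to be held near their usual output by feedback, among them ribosomal protein genes whose product blocks the splicing or lowers the stability of their own mRNA. In yeast growing on glucose most energy comes from fermentation, and genes for respiration are held low by glucose and switched on by the activator made of Hap2, Hap3, Hap4 and Hap5 and by Hap1, which senses heme and is itself encoded on chromosome XII.

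The tables listed 6533 genes by systematic name, of which 562 lie on chromosome XII, and 5116 were expressed highly enough to test, 445 of them on chromosome XII. The euploid libraries held 2118784 and 1455211 reads and the Chr12 libraries 2354539 and 1981814. Levels are given as CPM, a gene's reads over the TMM-scaled size of its library, where 1 read is worth 0.42 to 0.66 CPM and the median tested gene stood at 33.1 CPM. No spike-in entered these values, so a level is a share of a library's footprints, and fewer cells carrying an mRNA cannot be told apart from less of it per cell.

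Of the genes deleted in the strain table, HO, the mating type endonuclease, had 1 read in its coding sequence over all 4 libraries. HIS3, an enzyme of histidine synthesis, had 75 and 36 footprints in the euploid libraries and 87 and 75 in the Chr12 ones, a log2 difference of 0.39 ± 0.26 that was not called. HIS3 footprints thus stood in both Chr12 libraries, against the deletion listed for the marked Chr12 strain. The libraries labelled Chr12 did carry a chromosome-wide excess of chromosome XII reads, given next. The 5 MATa-specific genes summed to 1624 and 718 footprints in euploid cells and 1231 and 654 in Chr12 cells, and the 4 MATα-specific genes to 15 and 49 against 28 and 39, of which the receptor gene STE3 gave 7 and 41 against 9 and 35.

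Genes on chromosome XII held more footprints in Chr12 along the whole chromosome. They took 13.1% and 12.4% of the reads in the euploid libraries and 19.6% and 18.7% in the Chr12 libraries. The median log2 fold change of the 445 genes was 0.69, against -0.05 for the 4671 genes elsewhere, a gap of 0.74 or 1.67-fold that came out as 0.77 in the first pair and 0.76 in the second (SD 0.007, n = 2 pairs). Of the 445 genes 394 lay above 0, 355 of them in both pairs. The left arm had a median of 0.68, and 4 consecutive stretches of the right arm had medians of 0.74, 0.65, 0.69 and 0.71, so the 5 medians lay between 0.65 and 0.74.

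**Figure D1:**
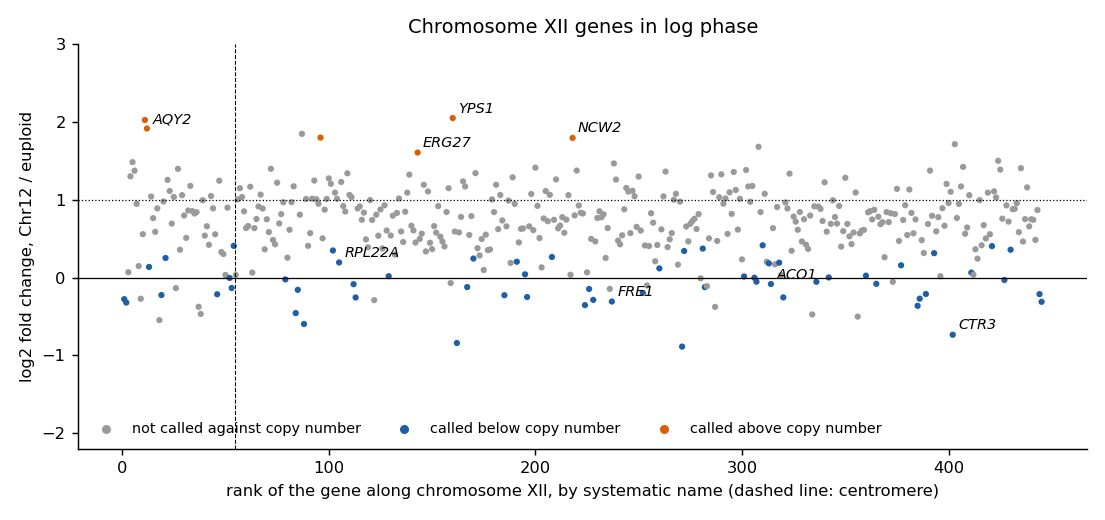
Fitted log2 fold change of each tested chromosome XII gene (vertical axis), in the order of its systematic name (horizontal axis, dashed line at the centromere). Solid and dotted horizontal lines mark no change and 2 copies against 1, and most genes lie between or near them on both arms, with AQY2 and YPS1 above and CTR3 and FRE1 below.

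With the replicate number as a block, edgeR's quasi-likelihood test called 533 of the 5116 genes, which is 10.4%, where called means a Benjamini-Hochberg adjusted p (FDR) under 0.05. All 533 rest on that block and on fitting the log phase libraries alone. Without the block edgeR called 0 genes, with 334 at an unadjusted p under 0.05. A fit of all 8 libraries with a replicate block within each phase also called 0, with 317 at an unadjusted p under 0.05. Fits that left out 1 library, which cannot hold the block, called 7 without euploid replicate 1, 3 without euploid replicate 2 and 0 without either Chr12 replicate. DESeq2 with the block called 195, of which 194 were among the 533. The labels do not say that a shared number means a shared day. Since 1 residual degree of freedom is left, the spread of each gene was taken from the trend over all genes. An SE or FDR below therefore does not show how far the 2 pairs of a gene differed. FLO11, at -4.09 ± 0.23, had pairs of -3.57 and -5.29, while GPD1, at -1.54 ± 0.17, had pairs of -1.50 and -1.58.

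Of the chromosome XII genes 213 were called higher, or 47.9%, and 1 was called lower. Outside chromosome XII 66 genes were called higher and 253 lower, which is 1.41% and 5.42% of those tested and the background against which the gene groups below are read. No such background is given for statements below that the strains did not overlap in a gene. Genes named for large changes of 1 sign in both pairs are likely to show that. With 2 libraries a strain, unchanged genes can show it by chance too. For every gene named, also those named for their reads, it only describes levels. Across the genes outside chromosome XII the ratios of the 2 pairs had a Pearson correlation of 0.26, and of 0.54 among genes at or above the median CPM, given as a description since genes are not independent replicates.

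**Figure D2:**
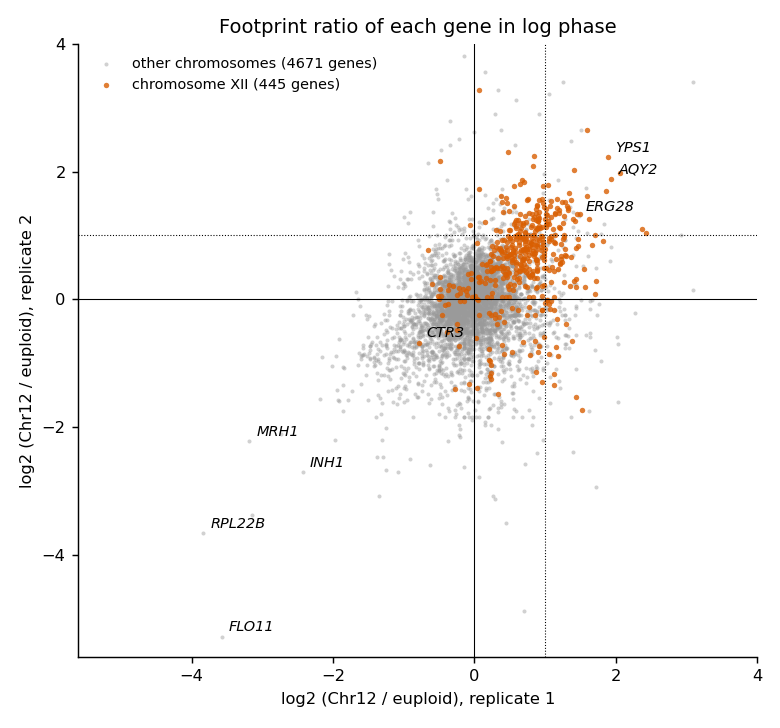
Log2 ratio of Chr12 to euploid for each tested gene in replicate 1 (horizontal axis) and replicate 2 (vertical axis), with chromosome XII genes in orange and other genes in grey. Dotted lines mark a ratio of 2 copies against 1, and FLO11, RPL22B, MRH1 and INH1 lie far below 0 in both pairs.

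Genes for mitochondrial energy metabolism outside chromosome XII held fewer footprints in Chr12. Of 154 genes of the respiratory chain and ATP synthase, the mitochondrial ribosome, the TCA cycle and mitochondrial import, 95 fell (61.7%) and 0 rose, and these made up 37.5% of all genes called lower outside chromosome XII. Among the other 4517 genes outside chromosome XII 158 fell, or 3.498%. Values above 0 were found for 1 respiratory, 1 mitochondrial ribosome, 4 TCA cycle and 3 import genes, none of which was called.

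Among these lists the respiratory chain and ATP synthase had the largest share of called members, with 31 of 34 genes lower and a median of -1.03, at -1.24 in the first pair and -0.83 in the second. DESeq2 called 23 of the 34. ATP1, the alpha subunit of the ATP synthase, stood at 1493 and 1468 CPM in the euploid libraries and 481 and 818 in the Chr12 libraries, a log2 fold change of -1.24 ± 0.18 (SE; edgeR FDR 1.4e-09). CYC1, the main form of cytochrome c, stood at 1067 and 1084 CPM against 357 and 663, a log2 fold change of -1.14 ± 0.18. Between 34.5% and 66.6% of CYC1 reads in each library lay at 1 nucleotide, and without that position CYC1 was called at -0.995. Both genes had lower values in each Chr12 library than in either euploid library, although Chr12 replicate 1 was lower than replicate 2. ATP2, the beta subunit, went from 729 and 718 CPM to 273 and 379.8 with a log2 fold change of -1.17 ± 0.17. QCR6, a subunit of the cytochrome bc1 complex, showed how far the 2 replicates could differ in level, with 284 and 684 CPM in the euploid and 132 and 473 in Chr12, so that the groups overlapped while both pairs fell, and the fit gave -0.80.

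Further genes of this group were among the largest decreases of any gene outside chromosome XII above the median level. INH1, which keeps the ATP synthase from running backwards, was at 55.2 and 102 CPM in the euploid and 10.03 and 15.4 in Chr12, a log2 fold change of -2.59 ± 0.27 (edgeR FDR 1.3e-18). ATP18, a small ATP synthase subunit, went from 238 and 190.1 CPM to 71.9 and 70.4, a log2 fold change of -1.59 ± 0.18. NDE1, the NADH dehydrogenase on the outer face of the inner membrane, went from 541 and 353 to 149.7 and 169.5 CPM with a log2 fold change of -1.47 ± 0.17. The groups did not overlap for any of these. QCR10, another bc1 subunit, had 67.7 and 59.9 CPM against 15.1 and 31.9 and a log2 fold change of -1.52 ± 0.25.

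The 3 respiratory genes that lie on chromosome XII did not rise with their chromosome. They encode ATP14, an ATP synthase subunit, and COX12 and COX8, subunits of cytochrome c oxidase. ATP14 stood at 182 and 172 CPM in the euploid and 158 and 185 in Chr12, a log2 fold change of -0.05 ± 0.17, COX12 at -0.16 and COX8 at -0.21, none of them called. Against a doubling, which their copy number would give, they stood at log2 values of -1.05, -1.16 and -1.21, and each was called below copy number (edgeR FDR 1.2e-07, 5.8e-08 and 1.6e-07). Of all tested chromosome XII genes 13.5% were called so.

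The mitochondrial ribosome, which makes the few proteins encoded in mitochondrial DNA, had 43 of 69 genes lower with a median of -0.85, or -0.97 and -0.78 in the pairs. MRPL27 went from 100.6 and 80.2 CPM to 60.2 and 48.4, a log2 fold change of -0.73 ± 0.20 (edgeR FDR 0.0049). MRPL22 went from 67.2 and 96.03 to 32.6 and 70.4 CPM, so the groups overlapped while both pairs fell, with a log2 fold change of -0.73 ± 0.21. MRPS35, at 68.1 and 210.5 CPM against 39.3 and 166, was called at -0.54 although the groups overlapped, and 1 nucleotide held 62.1% of its reads in Chr12 replicate 2. MRPL40, at 97.3 and 77.6 CPM against 138 and 58.3, was the only gene of the list above 0 and was not called. In Chr12 replicate 1, 79.7% of its reads lay at 1 nucleotide, and without the highest position of each library its log2 fold change was -0.56. The chromosome XII members MRPL4 and MRPL15 stood at -0.03 and -0.26, and relative to copy number at -1.03 and -1.25, both called (edgeR FDR 6.6e-05 and 1.7e-04). DESeq2 called 6 of the 69 genes, where edgeR called 43.

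In the TCA cycle 11 of 20 genes were lower and 0 higher, with a median of -0.61, and the change was not shared by the whole list. DESeq2 called 5 of the 20. SDH1, the flavoprotein of succinate dehydrogenase, was at 58.4 and 78.9 CPM in the euploid and 16.7 and 26.4 in Chr12, a log2 fold change of -1.69 ± 0.25 (edgeR FDR 3.5e-09). IDH2, a subunit of the NAD-dependent isocitrate dehydrogenase, went from 171 and 103 CPM to 47.7 and 48.98, a log2 fold change of -1.49 ± 0.20. Neither gene's groups overlapped. IDH1 (-1.21), CIT1, the citrate synthase (-1.09), and MDH1, the mitochondrial malate dehydrogenase (-1.07), were called as well. The 4 members with the most reads feed pyruvate into the cycle and were not called: PYC2, a pyruvate carboxylase (0.20), and PDA1 (-0.37), PDB1 (-0.11) and LAT1 (-0.30) of pyruvate dehydrogenase. On chromosome XII ACO1, the aconitase, stood at 471 and 533 CPM against 399 and 560.3, a log2 fold change of -0.08 ± 0.17 and -1.08 relative to copy number (edgeR FDR 2.9e-08), and SDH2, the iron-sulfur subunit of succinate dehydrogenase, was at -1.22 relative to copy number (edgeR FDR 0.0050).

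Mitochondrial protein import fell less, with 10 of 31 genes lower by edgeR and 2 by DESeq2, and a median of -0.47. SSC1, the Hsp70 of the mitochondrial matrix, stood at 1397 and 1164 CPM against 763 and 890.5, a log2 fold change of -0.63 ± 0.18 (edgeR FDR 0.0062). TIM9 (-0.49), TIM44 (-0.47) and the receptor TOM70 (-0.57) were called lower, and so was POR1, the main pore of the outer membrane, at -1.32. Of the chromosome XII members, HSP60, the matrix chaperonin, was called higher, at 0.69 ± 0.18, while PAM18, a motor subunit at 0.66, was not called and MAS1, which cuts off targeting sequences, stood at 0.20 ± 0.19, which is -0.80 relative to copy number (edgeR FDR 9.8e-04).

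The genes that encode the activators of respiration were themselves measured at low levels. HAP2 went from 78 and 30 reads to 41 and 12, a log2 fold change of -1.24 ± 0.33 (edgeR FDR 0.0030), and HAP5 from 42 and 48 reads to 15 and 31, a log2 fold change of -1.20 ± 0.34 (edgeR FDR 0.0069). Both encode DNA-binding subunits. HAP4, the activating subunit, was at -0.79 and missed the threshold (edgeR FDR 0.083), and HAP3 was at 0.14. HAP1, on chromosome XII, had 106 and 71 reads against 165 and 95, a log2 fold change of 0.34 ± 0.22 that was not called, and -0.66 relative to copy number (edgeR FDR 0.045).

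**Figure D3:**
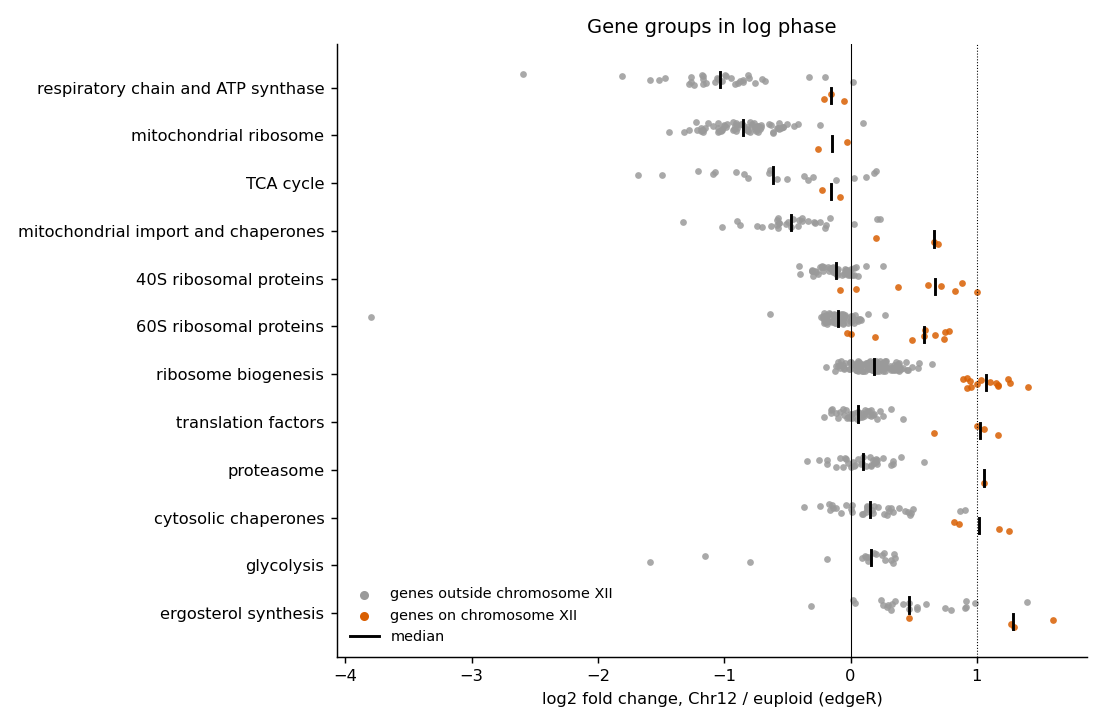
Fitted log2 fold change of the genes of each group (horizontal axis), with every tested member as a point and lines at no change and at 2 copies against 1. Members outside chromosome XII of the respiratory chain, the mitochondrial ribosome and the TCA cycle lie mostly below 0 (medians -1.03, -0.85 and -0.61) and those of ergosterol synthesis above it (median 0.46).

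Genes for ergosterol synthesis held more footprints in Chr12. Ergosterol is the sterol of yeast membranes, and 11 of 23 genes for its synthesis outside chromosome XII were called higher and 0 lower, with a median of 0.46 (0.45 and 0.52 in the pairs) and 22 of 23 genes above 0. ERG28, a scaffold that holds sterol enzymes together in the endoplasmic reticulum, had the largest increase outside chromosome XII above the median level: 59.8 and 65.1 CPM in the euploid and 166 and 161 in Chr12, a log2 fold change of 1.395 ± 0.19 (edgeR FDR 4.3e-11). ERG11, the lanosterol demethylase that azole drugs block, went from 394 and 409.8 to 766 and 745 CPM, a log2 fold change of 0.91 ± 0.17. ERG2, the sterol isomerase, went from 175 and 189 to 331 and 393 CPM, a log2 fold change of 0.98 ± 0.17. ERG7, which closes the sterol rings, went from 132 and 162 to 218 and 347 CPM, a log2 fold change of 0.91 ± 0.17. In all 4 genes each Chr12 library lay above both euploid libraries.

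Of the steps with the most reads, ERG1 (0.60), ERG10 (0.75) and ERG13 (0.53) were called, and ERG25, the methyl oxidase, was not, at 1487 and 1487 CPM against 1618 and 2427 and a log2 fold change of 0.41 ± 0.19. ERG4, which catalyses the last step, was the 1 member below 0, at -0.31, and was not called. CYB5, the cytochrome b5 that passes electrons to sterol enzymes, was called at 0.80. On chromosome XII the list has ERG3, at 252 and 312 CPM against 577 and 797 and 1.27 ± 0.17, ERG27, at 105 and 112 against 316 and 346 and 1.61 ± 0.17, ECM22, a sterol regulator at 1.30 ± 0.31, and HMG2 at 0.46 ± 0.28. The first 3 of these were called higher. ERG27, the keto reductase that sits beside ERG28 in the same complex, was also called above copy number, by 0.61 ± 0.17 (edgeR FDR 0.0094), and was 1 of only 6 such genes. UPC2, the other sterol regulator, was at 0.33 on another chromosome and was not called.

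**Figure D4:**
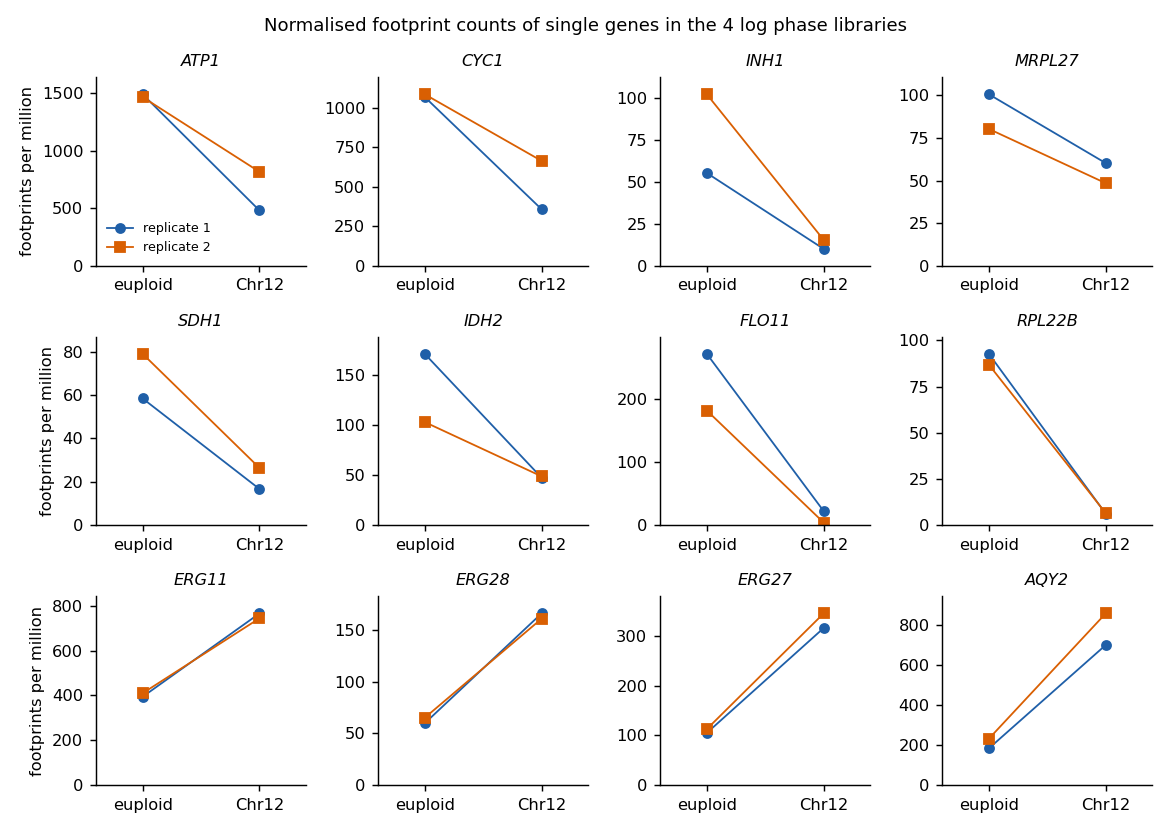
CPM (vertical axis, from 0) of 12 genes in the 4 libraries, as points for euploid and Chr12 with a line joining libraries of the same replicate number. Both lines fall for ATP1, CYC1, INH1, MRPL27, SDH1, IDH2, FLO11 and RPL22B and rise for ERG11, ERG28, ERG27 and AQY2.

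Above the median level, the decreases of FLO11 and MRH1 outside chromosome XII were larger than those of any mitochondrial gene named. FLO11, the adhesin behind invasive growth and biofilm mats, had 585 and 276 reads in the euploid libraries and 54 and 8 in the Chr12 libraries, or 271 and 182 CPM against 22.6 and 4.40, a log2 fold change of -4.09 ± 0.23 and 17.1-fold lower (edgeR FDR 2.9e-66). MRH1, a plasma membrane protein of the Hsp30 family, went from 204 and 155.2 CPM to 22.2 and 33.02, a log2 fold change of -2.72 ± 0.21. ELO1, which lengthens medium-chain fatty acids, went from 84.3 and 46.04 to 18.4 and 15.4 CPM, a log2 fold change of -1.93 ± 0.27. None of these overlapped between the strains. GPD1, the glycerol 3-phosphate dehydrogenase of the osmotic response, went from 255 and 312 to 89.9 and 105 CPM, a log2 fold change of -1.54 ± 0.17. The entry YDR342C_1, whose name is that of the glucose transporter gene HXT7, went from 309.6 and 274 to 80.3 and 102 CPM, a log2 fold change of -1.69 ± 0.18, and HXT6, its near-identical neighbour, was called at -1.04. Reads that fit both genes cannot be assigned to either, so the pair should be read as one.

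Cell wall and copper genes held other called decreases. Of 35 cell wall genes outside chromosome XII 5 were lower, with a list median of -0.10. Besides FLO11 they were CWP2, at 2013 and 1321 CPM against 777 and 596 and -1.26 ± 0.18, its neighbour CWP1 at -1.13, CIS3 at -0.68 and TIR3 at -1.81, all mannoproteins or wall proteins. Of 10 metal genes outside chromosome XII CTR1, CTR2 and SMF1 were lower. CTR1, the main high-affinity copper transporter, went from 250.3 and 294 CPM to 129 and 98.5, a log2 fold change of -1.25 ± 0.17 (edgeR FDR 8.9e-11), and its groups did not overlap. The only chromosome XII gene called lower, CTR3, is the second high-affinity copper transporter. It stood at 224 and 157 CPM against 130.5 and 97.97, a log2 fold change of -0.74 ± 0.18 (edgeR FDR 6.0e-04), and -1.73 relative to copy number, with no overlap between the strains. FRE1, the metal reductase that prepares copper and iron for uptake and also a chromosome XII gene, stood at 363 and 169 CPM against 307 and 129 and -0.31 ± 0.17. Its groups overlapped, and relative to copy number it was at -1.31 (edgeR FDR 7.1e-12). COX17, a chromosome XII gene whose product carries copper to cytochrome c oxidase, was at -0.22 ± 0.25 and not called. Relative to copy number it was at -1.21 (edgeR FDR 9.0e-05).

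Among single genes that rose outside chromosome XII above the median level, besides those of ergosterol, were FRE4, a reductase of iron siderophores, with 106 and 105 CPM against 257 and 199 and 1.11 ± 0.18, and PLN1, a lipid droplet coat protein, with 60.2 and 63.8 against 103 and 153.6 and 1.02 ± 0.19. Of the PLN1 reads 44.3% and 42.3% in the replicate 2 libraries lay at 1 nucleotide, and without it PLN1 was called at 1.01. SCM4, a protein of the mitochondrial outer membrane, went from 39.4 and 56.6 to 81.95 and 136 CPM, a log2 fold change of 1.16 ± 0.20 (edgeR FDR 6.6e-07). MSC7 and YPL245W, whose roles are less certain, rose by 0.97 and 1.09. None of these overlapped between strains. TCM62 and TKL2 also met the rule for naming, at 1.38 and 1.004, but in Chr12 replicate 1 93.5% and 94.8% of their reads lay at 1 nucleotide, and without the highest position of each library they stood at 0.08 and 0.97 and were not called.

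SSA1, a cytosolic Hsp70, was the only one of 36 cytosolic chaperone genes outside chromosome XII that was called, at 2196 and 2173 CPM against 3648 and 4614 and 0.91 ± 0.20 (edgeR FDR 1.4e-04). Its near-identical copy SSA2 lies on chromosome XII and went from 8445 and 7174 to 17199 and 18005 CPM, 1.18 ± 0.24, so reads shared by both make the change of SSA1 uncertain. The other chromosome XII chaperone genes, CPR6 (1.26), HSP104 (0.86) and YKE2 (0.82), were called higher and lay near copy number. The list median outside chromosome XII was 0.15. Of 35 proteasome genes edgeR and DESeq2 both called 0, with a median of 0.10 and 2 genes at an unadjusted p under 0.05. In ribosome quality control and rescue, 1 of 22 genes was called, MBF1, which guards against frameshifts at stalled ribosomes, at 0.61 ± 0.17. SKI2, a chromosome XII gene of mRNA decay, was at 0.79 ± 0.18.

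Cytosolic ribosomal protein genes outside chromosome XII were nearly level. In the 40S subunit edgeR and DESeq2 called 0 of 48, with a median of -0.11 and 2 genes at an unadjusted p under 0.05, and in the 60S subunit 2 of 71, with a median of -0.10. Those 2 were RPL22B and RPL8A. RPL22B had 200 and 132 reads in the euploid libraries and 15 and 12 in the Chr12 libraries, a log2 fold change of -3.80 ± 0.29, or 13.9-fold lower (edgeR FDR 2.4e-34), the second largest decrease named here. RPL8A stood at 1759 and 2404 CPM against 988 and 1775, so the groups overlapped narrowly while both pairs fell, with a log2 fold change of -0.63 ± 0.19 (edgeR FDR 0.0092). The paralogues of both genes, RPL22A and RPL8B, lie on chromosome XII.

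Chromosome XII holds 18 ribosomal protein genes, of which 11 were called higher and 6 were called below copy number. RPS0B was at 1.005 ± 0.21 and RPS25B at 0.88 ± 0.18, near a doubling. RPL15A, at 8468 and 7994 CPM against 7257 and 9016 and -0.02 ± 0.22, RPP0, the stalk protein, at 0.00 ± 0.21, RPS31, which is made as a ubiquitin fusion, at 0.04 ± 0.20, and RPS22B, at 253 and 197 against 179.8 and 252 and -0.08 ± 0.17, were close to 0 and were called below copy number (edgeR FDR 2.2e-04, 1.7e-04, 1.6e-04 and 3.1e-08). RPL22A, at 1403 and 1325 CPM against 1501 and 1622 and 0.19 ± 0.18, and RPS28B, at 0.37 ± 0.17, were the other 2. RPL22A protein is known in yeast to block splicing of RPL22B mRNA. Splicing was not measured here, and its part in the RPL22B level was not tested.

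For 14 of the 18 genes a paralogue on another chromosome was tested. The chromosome XII copies had a median of 0.64 and their paralogues a median of -0.07, with 13 of 14 below 0 and only RPL22B and RPL8A called. Of all tested genes outside chromosome XII, 40 of 48 of the 40S and 57 of 71 of the 60S subunit lay below 0. Their medians were -0.11 and -0.10, so the paralogues lay close to ribosomal protein genes elsewhere in general. Reads over a splice junction were not aligned, since the aligner used does not split reads, and paralogues share long stretches of sequence, so each value of a spliced or paired gene rests on the reads that could be placed.

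**Figure D5:**
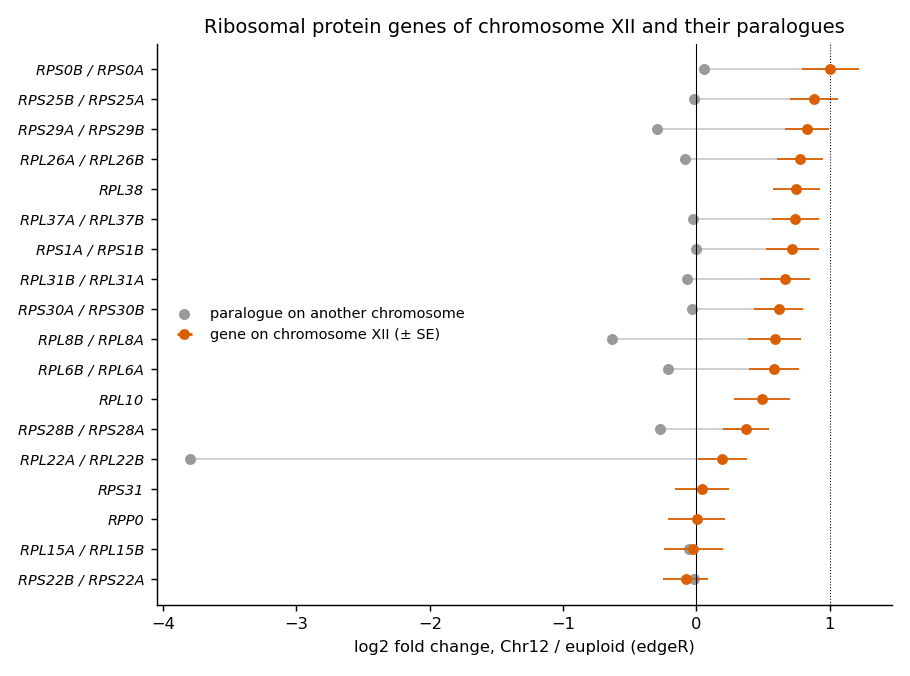
Fitted log2 fold change (horizontal axis) of the 18 ribosomal protein genes on chromosome XII (orange, bars show SE) and of their paralogues elsewhere (grey), 1 family to a line, with marks at no change and at 2 copies against 1. RPL22B lies at -3.80 and RPL8A at -0.63, and these are the paralogues that were called.

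Ribosome biogenesis genes on chromosome XII rose with their copy number, in all 14 cases, from 0.89 to 1.405 with a median of 1.07. CBF5, the pseudouridine synthase of rRNA, went from 1034 and 1438 CPM to 1840.2 and 2897, a log2 fold change of 0.92 ± 0.19 (edgeR FDR 3.1e-05). NOP56, its counterpart in the methylating particles, went from 719 and 935 to 1293 and 1875 CPM, 0.93 ± 0.18, and RLP24, a 60S assembly factor, from 353 and 376 to 649 and 1032, 1.17 ± 0.17. Outside chromosome XII 2 of 121 such genes were called, DBP2 and RRN3, both higher, with a median of 0.18. Translation factors on chromosome XII (4 of 4 called higher, median 1.03) and tRNA synthetases (2 of 2, median 1.002) were also close to a doubling, while edgeR and DESeq2 called 0 of 38 and 0 of 18 of those elsewhere, with medians of 0.06 and 0.13 and with 1 and 2 genes at an unadjusted p under 0.05.

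Set against a doubling rather than against no change, 60 chromosome XII genes (13.5%) were called below copy number and 6 (1.35%) above it. The 445 genes had a median of 0.69 and an upper quartile of 0.98, and 104 lay above 1. The chromosome as a whole thus lay below a doubling, which favours calls below copy number over calls above it. Departure of a gene from the chromosome's own median was not tested. Of the 445 genes 207 were called higher and not apart from copy number, and 172 were called in neither test. No gene was called both higher than the euploid and below copy number, so the 60 genes below copy number are ones whose own change was not called or, for CTR3, was a decrease. Those with the smallest p were CTR3, FRE1, COQ9, ACO1, RPS22B, COX12, ATP14 and COX8. ATP14, COX12 and COX8 are the 3 tested chromosome XII genes of the respiratory list. ACO1 is 1 of 2 on the TCA cycle list, and COQ9 serves coenzyme Q synthesis. How many of all 60 genes serve mitochondria is not given. COQ9 had 89.3% of its reads in euploid replicate 2 at 1 nucleotide and stood at -0.35 ± 0.20, with pairs of 0.02 and -0.60. MET17, the sulfide-using homocysteine synthase (0.18), CDC25, the exchange factor of Ras (0.19), and PDC5, a pyruvate decarboxylase (0.24), were also among the lowest log2 fold changes above the median level, and were called below copy number at -0.82, -0.81 and -0.76 relative to it.

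The 6 genes above copy number were YLL053C, AQY2, NCW2, YPS1, ERG27 and EMA19. AQY2, an aquaporin, gave 395 and 352 footprints in euploid and 1676 and 1561 in Chr12 cells, or 183 and 232 CPM against 701 and 859, a log2 fold change of 1.91 ± 0.18 that lay above copy number by 0.91 (edgeR FDR 7.5e-06). The adjacent YLL053C was at 2.02 ± 0.18. Both are pieces of one aquaporin gene in the laboratory strain, and the windows counted for neighbours overlap, so they are best read as one signal. YPS1, an aspartic protease anchored at the cell surface, went from 17.1 and 12.5 CPM to 64.4 and 59.4, 2.05 ± 0.28, and NCW2, a cell wall protein, from 64.4 and 44.7 to 235 and 145, 1.79 ± 0.19. EMA19, which takes part in targeting of mitochondrial proteins, went from 20.4 and 28.3 to 111 and 58.3, 1.80 ± 0.24. In euploid replicate 2, 55.8% of EMA19 reads lay at 1 nucleotide, and without the highest position of each library it was called at 2.36. CDC123, an assembly factor of translation initiation factor eIF2 (1.47), and CDC73, of the Paf1 complex (1.42), had the next largest increases at or above the median level and were not called apart from copy number.

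Further groups held 0 to 3 called genes each outside chromosome XII. In glycolysis 2 of 18 genes were called, both lower: GLK1, the glucokinase (-1.59 ± 0.30), and its relative EMI2 (-1.15 ± 0.37), with a list median of 0.16. In the cell cycle edgeR and DESeq2 called 0 of 38 genes, with 6 at an unadjusted p under 0.05, and for the CCT chaperonin 0 of 8, with 0 at an unadjusted p under 0.05. Histone genes had 2 of 10 lower and a median of -0.35. Of the 25 general stress genes tested 3 were lower, among them YGP1, a secreted glycoprotein induced by starvation, at -2.12 ± 0.41. The list median was 0.18, at -0.27 and 0.52 in the pairs, and 14 of the 25 genes lay above 0. In gluconeogenesis and the glyoxylate cycle edgeR and DESeq2 called 0 of 11 genes, with 3 at an unadjusted p under 0.05. That list had a median of 0.44, with 9 of 11 genes above 0. The MATa-specific genes had 3 of 5 lower: MFA1 (-1.61 ± 0.42) and MFA2 (-0.75 ± 0.19), which encode a-factor, and BAR1 (-0.99 ± 0.20), the protease that destroys α-factor, while the receptor STE2 (-0.40) and the exporter STE6 (0.08) were not called.

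Lists of amino acid, nitrogen and lipid genes held 1 to 5 called genes each outside chromosome XII. Of 28 genes of nitrogen uptake and use outside chromosome XII 4 were lower: PTR2, the peptide transporter, with 668 and 533 reads in the euploid libraries and 319 and 335 in the Chr12 libraries (-1.07 ± 0.17), MUP1, the methionine permease (-1.004 ± 0.17), OPT1, an oligopeptide transporter (-0.77), and PUT2 of proline use (-0.67). The list median was -0.13. CAR1, the arginase, was the 1 member called higher, with 547 and 488 reads against 952 and 1132 (0.80 ± 0.17). In lysine synthesis LYS20 (-0.66) and LYS9 (-0.76) were lower of 9 genes, all 9 of which lay below 0. BAT2, the cytosolic branched-chain aminotransferase, was lower, at -1.03 ± 0.18, among 11 genes for branched-chain amino acids, whose median was 0.17. Of 21 lipid genes ELO1 and CHO2, the first methyltransferase of phosphatidylcholine synthesis (-1.23 ± 0.20), were lower, with a median of -0.17.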

How the data were processed

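The authors trimmed the footprint reads, discarded those of noncoding RNA and mapped what was left to a YPS1009 genome by bowtie2. The deposited values are raw counts of read 5′ ends per nucleotide, over windows that open 72 nt upstream of a start codon and close 60 nt past the stop codon, 1 table a library. Removal of duplicate reads is not described, so a molecule copied in the library counts more than once. Here each gene's positions were summed, 4 entries without a systematic name were left out, and systematic names gave the chromosome (5822 names are in the R64 gene table). Second tables exist for the replicate 1 libraries and served as an alternative.

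Counts were tested with edgeR 4.0.16 (R 4.3.3) after its expression filter, with TMM factors, a quasi-likelihood fit of strain and replicate number, and Benjamini-Hochberg adjustment over 5116 genes at an FDR of 0.05. Pair ratios used a prior count of 0.5. The SE is the log2 fold change divided by the root of its F statistic. Departure from copy number was tested in a second fit of the same design. There the null was a log2 fold change of 1 for chromosome XII genes and 0 for all others. Its FDR was adjusted over all 5116 genes together. Alternatives included DESeq2 1.42.0 and limma 3.58.1. The fit was tested on simulated counts for this comparison of 5116 genes, where it recovered 66% of the 200 genes given a log2 change of 1, 92.5% at a change of 2 and 100% at a change of 4. It also called 7, 4 and 6 genes that had been given no change. The counts were drawn with the replicate structure and spread of the blocked fit. They therefore cannot show whether replicate numbers pair the real libraries.

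Named genes were, outside chromosome XII, the 12 highest and 12 lowest log2 fold changes called with 1 sign in both pairs and at or above the median CPM, on chromosome XII the 8 highest and 8 lowest, up to 8 departures in each direction, and up to 4 members of each list with the most reads. Other members were named after their values were seen. The members and the 49 gene lists were chosen with earlier results of these data known.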

Additional observations from a re-analysis of the deposited data

Results flagged for a closer look

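The strain difference itself differed between log phase and day 4 for 3 of 5794 genes in an edgeR fit of all 8 libraries with a replicate block within each phase (662 at an unadjusted p under 0.05). For the hexose transporter entry YDR342C_1 the log2 difference in log phase minus that at day 4 was -5.73 (edgeR FDR 0.015). In log phase its footprints numbered 668 and 416 in euploid and 192 and 185 in Chr12 cells, and at day 4 79 and 1481 in euploid and 2253 and 12378 in Chr12 cells. For HXT6, which shares its sequence, the same difference was -5.44 (edgeR FDR 0.015). For YGP1, a starvation-induced glycoprotein, it was -4.62 (edgeR FDR 0.039), from 44 and 40 reads against 12 and 10 in log phase and from 4 and 263 against 43 and 647 at day 4. Genes of the respiratory chain and ATP synthase outside chromosome XII had median log2 ratios of -1.24 and -0.83 in the log phase pairs and 0.96 and 1.04 in the day 4 pairs, so every pair of one phase lay opposite to every pair of the other. That difference was not tested as a group, and the first day 4 pair rests on 211302 and 396306 reads. Day 4 medians above 0 were not particular to respiration. Outside chromosome XII they were 0.64 and 0.65 for the 40S list and 0.72 and 0.71 for the 60S list. Both ribosomal lists had -0.23 and 0.01 in the log phase pairs. Other lists lay below 0 at day 4, such as the proteasome at -0.20 and -0.33, and all genes outside chromosome XII had -0.08 and -0.08.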

How the results depend on the processing

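The calls depended on the replicate block and on fitting the log phase libraries alone. Without it edgeR called 0 genes against 533, 0 departures from copy number against 66, and 0 against 169 of the 1140 listed genes outside chromosome XII, with 334 genes at an unadjusted p under 0.05. Fits of all 8 libraries also gave 0 for each of these counts, with no replicate block (106 genes at an unadjusted p under 0.05) and with a replicate block within each phase (317). The deviations of same-numbered libraries from their group means correlated at 0.753 across genes. With 2 libraries a group, the 2 deviations of a gene differ only in sign, so both pairs give the same value. The opposite pairing would only reverse its sign. The correlation therefore cannot show whether the numbers pair the cultures. DESeq2 with the block called 195 genes, 20 departures and 63 listed genes, and gave 2381 genes no adjusted p. Leaving out 1 library, without the block, left 0 to 7 genes, 0 to 1 departures and 0 to 3 listed genes. RLE size factors, TMM factors from genes outside chromosome XII, limma-voom (added after seeing the data), other count filters, gene-body reads, counts without the highest position and the second tables of replicate 1 gave 441 to 601 calls.

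The gap between chromosome XII and other genes, 0.74, was 0.72 and 0.71 in the fits of all 8 libraries without and with a block, 0.72 with no filter on low counts, 0.81 with at least 50 reads in each library, 0.77 in gene bodies, 0.83 without the highest position, 0.84 with the second tables, and 0.74 to 0.80 when 1 library was left out. The mitochondrial ribosome median of -0.85 ranged from -1.01 to -0.68 when 1 library was left out, without Chr12 replicate 2 and without Chr12 replicate 1. Medians of the respiratory, TCA cycle and ergosterol lists kept their sign under every alternative run. With 1 library left out, some named genes changed sign: TCM62 ranged from -0.71 to 3.20, TKL2 from -1.57 to 3.23, FRE1 from -1.04 to 0.37, COX17 from -0.81 to 0.26, CDC25 from -0.012 to 0.42, PDC5 from -0.10 to 0.63, and COQ9 relative to copy number from -2.77 to 0.27. These fits cannot hold the block, and the cause was not tested. Of 54 named values 47 lost their call without the replicate block, which is every one that had a call, and 8 lost it under DESeq2. The other 7 were not called in the main fit.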

Other observations

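Some further groups were put together after their values had been seen and are given as values only. Genes that make and release glycerol did not move together. Besides GPD1 (-1.54 ± 0.17), GPP2, the stress-induced glycerol phosphatase, was lower, with 55 and 25 reads in the euploid libraries and 23 and 5 in the Chr12 libraries (-1.76 ± 0.41). GPD2, the isoform used to balance NADH, was higher, with 273 and 271 reads against 565 and 504 (0.77 ± 0.17, edgeR FDR 1.5e-04), and GPP1 was at 0.42 and not called. FPS1, the glycerol channel on chromosome XII, was at 0.89 ± 0.19. Of 11 tested genes of the osmotic stress pathway outside chromosome XII 2 were lower, the sensors MSB2 (-1.04 ± 0.19) and SHO1 (-0.74 ± 0.20). The group median was -0.31, and the sensors SLN1 (-0.37) and HKR1 (-0.20) were among those not called. HOG1, the kinase of the pathway (0.92 ± 0.19), and SSK1 (0.85 ± 0.29), both on chromosome XII, were higher and near copy number.

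Eisosomes, the furrows under the plasma membrane, had 4 of 8 genes lower: PIL1 (-0.68 ± 0.17) and LSP1 (-0.90 ± 0.17), which form their coat, EIS1 (-0.89) and NCE102 (-0.58). Of 20 genes for mitochondrial transcription, RNA processing and translation outside chromosome XII other than ribosomal proteins, 11 were lower, with a median of -0.71. TUF1, the mitochondrial elongation factor, went from 458 and 384 CPM to 192 and 234 (-0.99 ± 0.17, edgeR FDR 2.3e-07), and RPM2 (-1.22 ± 0.23), MSS116 (-0.90) and the RNA polymerase RPO41 (-0.63) were lower as well. Among 17 mitochondrial carriers only PET9, the ADP/ATP carrier (-1.07 ± 0.17), MIR1, the phosphate carrier (-1.22 ± 0.17), and YHM2 (-0.61) were called. Of 9 copper genes tested outside chromosome XII 3 were lower: CTR1, CTR2 and FRE7, a reductase of the copper regulon (-1.19 ± 0.31). The group median was -0.57, and the regulators MAC1 (-0.21) and CUP2 (0.22) were among those not called.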
